A study of Mus musculus with 12 samples.

Results

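Chromosome 1 is the longest mouse chromosome and held more DNase I peaks than most others in a series on accessible chromatin in dividing red cell precursors. All peaks that the deposited lists place on it were taken, 189846 of 1600000 peaks over 16 lists (11.9%). Over the same lists chromosome 3 held 51998 peaks and chromosome 5 held 106250, and these 2 chromosomes serve as the comparison. Chromosome 1 was chosen by its number of peaks per list and per Mb, so its density, its dense stretches and its share of the lists are described without a test.

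DNase-seq maps the places where the nuclease DNase I cuts chromatin readily. These are mostly promoters and enhancers, where bound factors keep nucleosomes away. In mitosis chromosomes condense and many transcription factors leave them, while much of the accessible chromatin stays cleavable. GATA1 is the transcription factor that drives red cell maturation.

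The cells are 2 mouse lines of the 129 strain background, and every group carries the same disrupted Gata1 gene. Mitotic G1E-ER4 cells, a subline with an estradiol-inducible form of GATA1, received 100 nM estradiol for 22 h and 200 ng/ml nocodazole, which blocks spindle assembly, for 7 h. Asynchronous G1E-ER4 cells received the estradiol alone. Mitotic G1E cells, the parent line without GATA1, received the same nocodazole treatment and no estradiol. Asynchronous G1E cells received neither agent. Mitotic cells were sorted for phosphorylated histone H3, asynchronous cells were not, and all cells were fixed with formaldehyde. Line and estradiol cannot be told apart, nor can mitosis, nocodazole and the sort. Each of the 4 groups has 3 single-library lists, and a further list per group pools them. No label ties replicates to separate cultures. The p-values therefore measure spread between these lists alone, which may be technical.

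Each list holds 100000 peaks in order of the authors' signal, so rank 1 is the strongest peak and a gain on one chromosome must be a loss elsewhere in the list. The files give no reads, and depth is unknown. Of the 12 single lists, 5 stand apart. Replicate 1 of mitotic G1E and replicate 1 of asynchronous G1E had 15.9% and 13.7% of their peaks on chromosome 4, against 4.67% to 7.46% in the other 10 lists. They also had 73.5 and 78.7 peaks per Mb between 60 and 80 Mb of chromosome 5, against 16.1 to 29.1 in the other 10 lists. Replicate 1 of asynchronous G1E-ER4 had the widest peaks, with a median of 1192 bp against 356 to 942 bp in the other 11 lists. Replicates 2 and 3 of asynchronous G1E had the narrowest peaks, with medians of 356 and 415 bp against at least 471 bp in the other 10 lists. They also had the fewest numbered peaks before the limit of 100000, with 273085 and 330119 against at least 421091 in the other 10 lists. Values without the lists that stand apart are given beside the results they move most.

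Chromosome 1 held between 9638 and 16312 peaks per list. By replicate, it held 12385, 11552 and 14029 peaks in mitotic G1E-ER4 and 9653, 11031 and 10964 in asynchronous G1E-ER4. In G1E it held 11965, 9638 and 11499 peaks in mitotic lists and 10304, 16312 and 14715 in asynchronous lists. The 2 highest lists were thus replicates 2 and 3 of asynchronous G1E, the lists with the narrowest peaks, and the ranges of all groups except asynchronous and mitotic G1E-ER4 overlapped. In 9 of 12 lists no other chromosome held as many peaks. Per Mb of span it was never the densest: its place was 2 in 4 lists and between 3 and 5 in the rest, with chromosome 12 first in 9 lists, chromosome 11 in 2 and chromosome 4 in 1.

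The 194 Mb that carry peaks on chromosome 1 had 65.2 ± 6.49 peaks per Mb in mitotic G1E-ER4 and 54.3 ± 4.00 in asynchronous G1E-ER4 (SD, n = 3 each). They had 56.8 ± 6.34 in mitotic G1E and 71.0 ± 16.0 in asynchronous G1E (SD, n = 3 each). Chromosomes 3 and 5 together had 30.7 ± 1.13, 33.4 ± 1.91, 32.2 ± 1.21 and 31.4 ± 1.61 peaks per Mb in the same 4 groups. The ratio of chromosome 1 to chromosomes 3 and 5 was above 1 in all 12 lists, from 1.40 to 2.80 with a mean of 1.95. Replicates 2 and 3 of asynchronous G1E had 84.0 and 75.8 peaks per Mb on chromosome 1, against 49.6 to 72.3 in the other 10 lists, and the mean ratio over those 10 was 1.82. The 2 comparison chromosomes differ from each other, with a mean over the 12 lists of 20.6 peaks per Mb on chromosome 3 and 43.8 on chromosome 5. The authors' pooled lists gave 64.6 and 51.8 peaks per Mb on chromosome 1 in mitotic and asynchronous G1E-ER4, and 56.7 and 62.8 in mitotic and asynchronous G1E.

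Peaks on chromosome 1 were also closer together. The median distance between neighbouring summits was 3497 ± 344 bp on chromosome 1 and 5134 ± 1175 bp on chromosomes 3 and 5 (SD, n = 12 lists), and it was shorter on chromosome 1 in 12 of 12 lists. Peaks covered 5.97% ± 1.80 of the span of chromosome 1 and 2.99% ± 1.28 of that of chromosomes 3 and 5 (SD, n = 12 lists). Gene number did not follow the same order. RefSeq for GRCm38.p6 has 1204 protein-coding symbols on chromosome 1, 983 on chromosome 3 and 1268 on chromosome 5. That made 9.97 peaks per gene on chromosome 1 as a mean over the 12 lists, against 3.28 on chromosome 3 and 5.17 on chromosome 5, while chromosome 12 had 14.5.

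By the running numbers of the peaks, the excess was present before the lists were limited to 100000 peaks. Each peak carries a running number that rises along its chromosome in all 12 lists, and the numbers skip where weaker peaks were dropped. Numbers of neighbouring peaks on chromosome 1 were consecutive in 32.8% to 39.8% of cases. If the numbering had no other gaps, the authors' caller had found at least 42575 to 64894 peaks on chromosome 1. The numbered peaks per Mb were 1.81 ± 0.433 times those of chromosomes 3 and 5 (SD, n = 12 lists), with a range of 1.34 to 2.87.

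Of the numbered peaks, 18.5% to 34.6% on chromosome 1 were kept in a list. The share kept on chromosome 1 over that on chromosomes 3 and 5 was 1.17 ± 0.0991 in mitotic lists, above 1 in 6 of 6, and 1.01 ± 0.0612 in asynchronous lists, above 1 in 4 (SD, n = 6 each). In mitosis, chromosome 1 peaks were therefore more often above the limit than those of the comparison chromosomes. Over both lines the ratios of the 2 stages overlapped at 1.07 to 1.31 and 0.906 to 1.08. Within each line they did not. Mitotic and asynchronous lists had 1.11 to 1.27 and 1.04 to 1.08 in G1E-ER4, and 1.07 to 1.31 and 0.906 to 1.01 in G1E. The stage difference in this ratio was not tested.

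**Figure D1:**
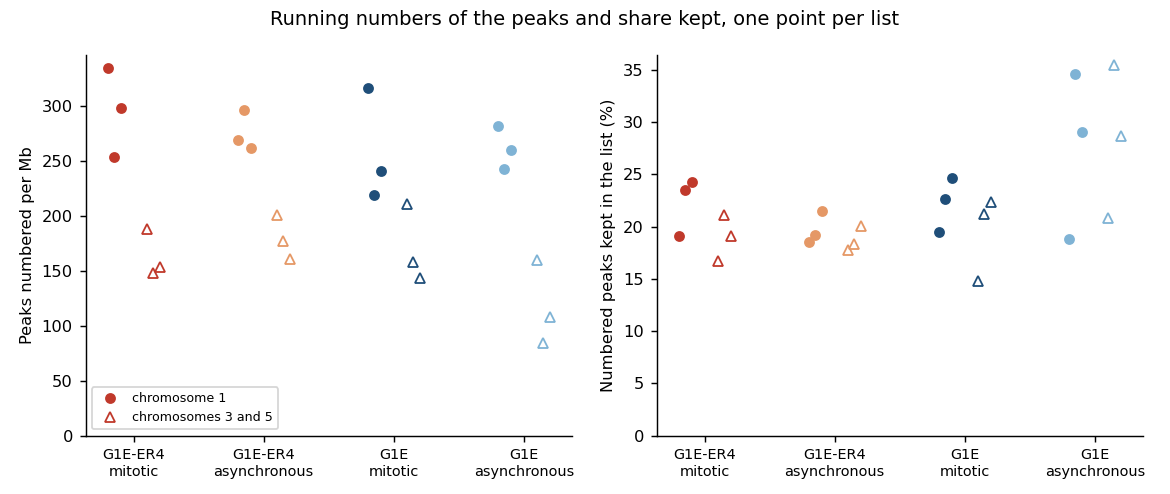
Peaks numbered per Mb (left) and the share of numbered peaks kept among the 100000 of the list (right), for chromosome 1 (filled circles) and chromosomes 3 and 5 (open triangles). Each point is 1 of the 12 single-library lists. Chromosome 1 lies above chromosomes 3 and 5 in numbered peaks in every list, at 1.34 to 2.87 times their value.

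The excess was spread unevenly along the chromosome. Cut into 1 Mb bins, chromosome 1 had 195 bins, of which 20 were dense, meaning that each of the 12 lists placed them above the 90th percentile of its own bins on chromosomes 3 and 5. Of the 307 bins on chromosomes 3 and 5, 11 met the same rule, with means over the 12 lists of 124 to 188 peaks per Mb. The rule picks bins for their height, so their high density and large share of the excess follow in part from it. The 20 dense bins had 216 ± 19.4 peaks per Mb (SD, n = 12 lists), 6.81 ± 0.862 times the mean bin of chromosomes 3 and 5, and held 36.5% ± 4.64 of the peaks of chromosome 1. The other bins of chromosome 1 had 43.9 ± 10.6 peaks per Mb, 1.40 ± 0.396 times the mean bin of chromosomes 3 and 5 (SD, n = 12 lists), with a range of 0.951 to 2.20. Taking the excess as the peaks beyond the mean density of chromosomes 3 and 5, the dense bins held 71.5% ± 23.4 of it (SD, n = 12 lists), from 40.0% to 111%, where values over 100% mean a shortfall elsewhere. In 3 lists most of the excess lay in the other bins: 52.9% in replicate 3 of mitotic G1E-ER4, and 60.0% and 53.9% in replicates 2 and 3 of asynchronous G1E.

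The dense bins formed 8 runs, and 14 of the 20 bins lay in the 3 longest. The longest run covered 133 to 139 Mb in 6 bins. It had 205, 238 and 244 peaks per Mb in the replicates of mitotic G1E-ER4 and 196, 235 and 250 in those of asynchronous G1E-ER4. In G1E the same run had 218, 216 and 253 peaks per Mb in mitotic lists and 196, 255 and 239 in asynchronous lists. All 4 groups overlapped there, with means between 227 and 230.

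The next run, 91 to 96 Mb, had 243 ± 26.7 peaks per Mb in mitotic G1E-ER4 and 225 ± 30.4 in asynchronous G1E-ER4 (SD, n = 3 each). In G1E it had 243 ± 11.9 in mitotic lists and 204 ± 32.3 in asynchronous lists, and replicate 1 of asynchronous G1E was lowest at 168. The run at 120 to 123 Mb had 189 ± 9.17, 187 ± 20.2, 196 ± 16.0 and 209 ± 41.6 peaks per Mb in mitotic and asynchronous G1E-ER4 and mitotic and asynchronous G1E (SD, n = 3 each). The groups overlapped at 120 to 123 Mb. At 91 to 96 Mb the mitotic G1E lists, with 246, 230 and 253 peaks per Mb, all lay above the asynchronous G1E lists, with 168, 218 and 228. The dense run at 88 to 90 Mb had the reverse order in both lines. There G1E had 185.5, 168.5 and 198.5 in mitotic and 217, 289.5 and 249.5 in asynchronous lists. G1E-ER4 had 166, 192 and 187 in mitotic and 196.5, 202.5 and 225.5 in asynchronous lists. Neither order was tested.

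Between 30 and 140 Mb chromosome 1 had 81.2 ± 15.7 peaks per Mb (SD, n = 12 lists), 2.58 times the mean bin of chromosomes 3 and 5 with a range of 1.41 to 3.64. This stretch held 19 of the 20 dense bins and 74.2% ± 5.76 of the peaks of chromosome 1. The stretch held 94.9% ± 15.0 of the excess, from 59.0% to 120%. Before 30 Mb the ratio was 0.964 ± 0.333, and from 140 Mb to the end 1.22 ± 0.348 (SD, n = 12 lists). These boundaries were drawn after the bins had been seen.

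Replicate 1 of asynchronous G1E-ER4 did not follow this pattern. It had 50.2 peaks per Mb between 30 and 140 Mb and 62.8 beyond 140 Mb, the lowest and the highest value of the 12 lists, and 58.0% of its excess lay beyond 140 Mb. Without it the stretch from 30 to 140 Mb held 98.1% ± 10.3 of the excess and the ratio beyond 140 Mb was 1.17 ± 0.317 (SD, n = 11 lists).

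Within the stretch the peaks were clustered, with few between the clusters. The 20 Mb from 120 Mb had 134 ± 20.5 peaks per Mb and those from 80 Mb had 107 ± 15.0, while the 20 Mb between them, 100 to 120 Mb, had 13.7 ± 6.57 (SD, n = 12 lists). The sparse window was sparse in every list, from 6.65 to 25.9 peaks per Mb. It kept 12.9% ± 4.49 of its numbered peaks, against 29.3% ± 4.57 in the window from 120 Mb (SD, n = 12 lists).

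**Figure D2:**
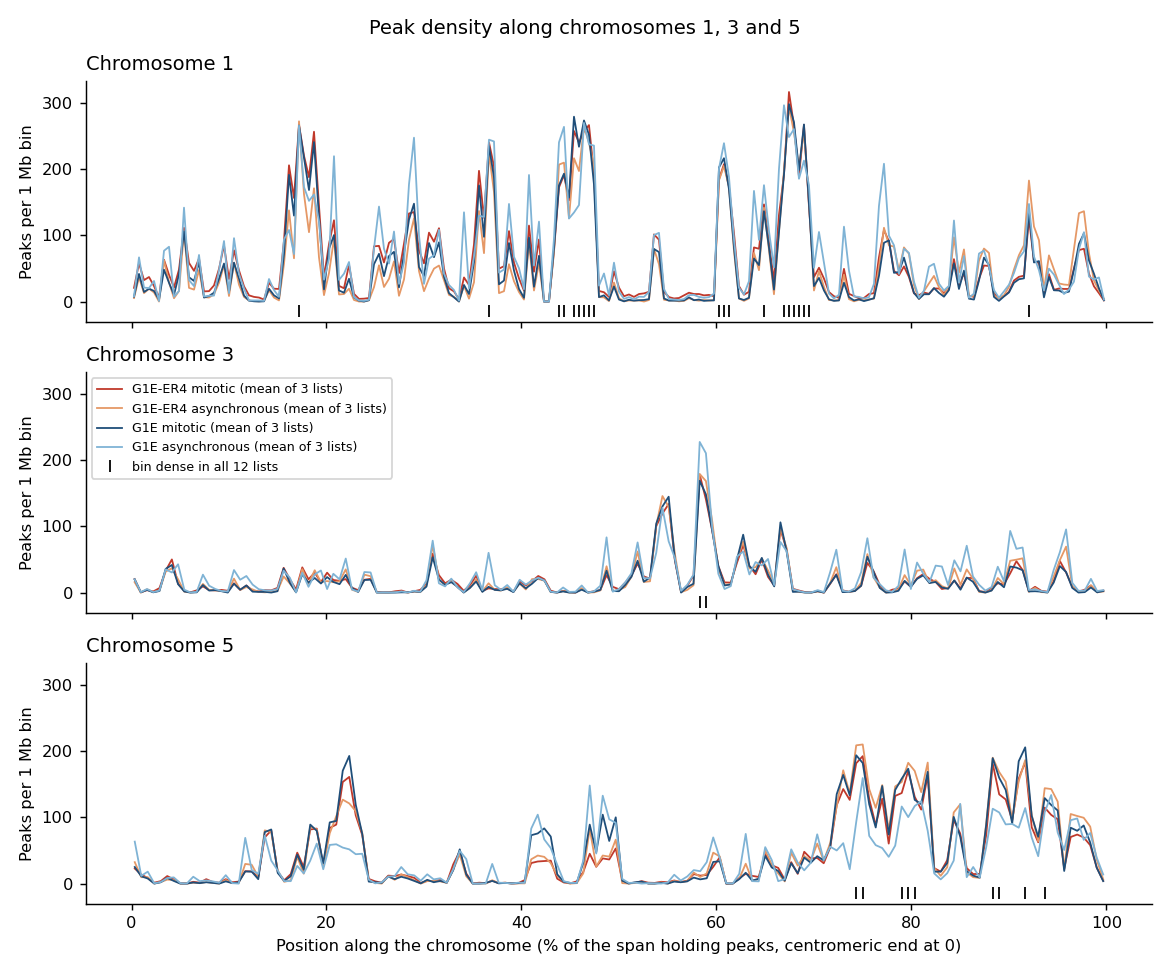
Peaks per 1 Mb bin along chromosomes 1, 3 and 5, as the mean of 3 single-library lists per group, against position as a percent of the span that holds peaks. Black ticks mark the bins that are dense in all 12 lists, 20 on chromosome 1 and 11 on chromosomes 3 and 5. The dense bins of chromosome 1 are high in all 4 groups by the rule that picks them. Some other bins differ between groups, such as 69 to 70 Mb, with a mean of 135 peaks in asynchronous G1E and 24.0 to 36.3 in the others.

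Chromosome 1 held 12004 ± 2060 of the 100000 peaks of a list (SD, n = 12 lists) and a smaller share of the strongest ones. Among ranks 1 to 10000 chromosome 1 held 7.48% ± 0.605 of the peaks in mitotic G1E-ER4, 6.40% ± 0.223 in asynchronous G1E-ER4, 7.06% ± 0.378 in mitotic G1E and 7.73% ± 1.30 in asynchronous G1E (SD, n = 3 each). Among ranks 10001 to 20000 the stages parted. Mitotic lists held 11.7% ± 0.681 in G1E-ER4 and 11.4% ± 1.71 in G1E, against 7.00% ± 0.727 and 7.12% ± 0.374 in asynchronous lists of the same lines (SD, n = 3 each).

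At the low end asynchronous G1E had the highest mean. Among ranks 90001 to 100000 chromosome 1 held 13.3% ± 0.836 of the peaks in mitotic G1E-ER4, 11.7% ± 1.04 in asynchronous G1E-ER4, 11.1% ± 0.899 in mitotic G1E and 17.5% ± 3.30 in asynchronous G1E (SD, n = 3 each). The replicates of asynchronous G1E at this end were 14.0%, 20.5% and 18.1%, with replicate 1 lowest. The density of chromosome 1 was thus lower among strong peaks: among the 20000 highest of each list it was 1.29 times that of chromosomes 3 and 5.

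**Figure D3:**
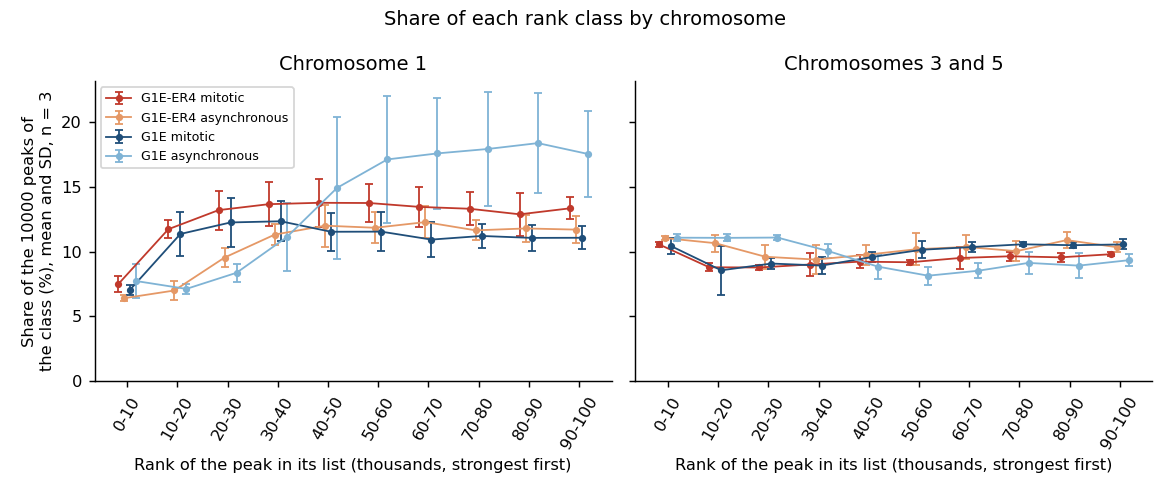
Share of each class of 10000 ranks that lies on chromosome 1 (left) and on chromosomes 3 and 5 (right), as mean and SD of 3 single-library lists per group. On chromosome 1 the share is 6.40% to 7.73% among the strongest 10000 peaks and 11.1% to 17.5% among the weakest 10000, and the mitotic groups rise earlier than the asynchronous ones.

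Whether chromosome 1 peaks rank higher in mitosis was tested on the median rank of chromosome 1 minus that of chromosomes 3 and 5, where a positive value means weaker peaks on chromosome 1. Mitotic G1E-ER4 lists had differences of 2840, 1024 and 1488 ranks, and asynchronous G1E-ER4 lists 3576, 5345 and 5650. In G1E, mitotic lists had differences of −5073, −51.5 and −1057 ranks, and asynchronous lists 15101, 17665 and 16118. In both lines every mitotic list lay below every asynchronous one.

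Mitotic minus asynchronous, the difference was −10714 ranks over both lines (p = 0.005 by an exact two-sided permutation of stage labels within line, the smallest its arrangements allow, and 0.0175 after Benjamini-Hochberg adjustment over 7 tests). With labels exchanged only within replicate numbers, exact permutation gave p = 0.0313, the smallest its 64 arrangements allow, and 0.109 after the same adjustment, above 0.05. The difference was −3073 ranks in G1E-ER4 and −18355 in G1E, each at p = 0.1 by exact permutation, the smallest possible within a line. The shift in G1E-ER4 minus that in G1E was 15282 ranks (exact permutation test, two-sided, p = 0.005, 0.015 adjusted over 3 such tests, and 0.0938 with labels exchanged only within replicate numbers). By line, G1E-ER4 minus G1E, the rank difference was 3844 in mitotic and −11438 in asynchronous lists, and −3797 over both stages (p = 0.15 by an exact two-sided permutation of line labels, adjusted 0.21).

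These ranks depend on how deep into the list one looks. Among the 20000 highest peaks of each list, chosen after seeing the data, the stage difference changed sign to 3151 ranks (exact permutation p = 0.005), with 2516 in G1E-ER4 and 3786 in G1E. The share by rank class shows the same, since mitotic lists gain on chromosome 1 from rank 10001 on and asynchronous lists lower down.

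The stage difference in peak width did not pass the test. Median width on chromosome 1 was 1.05 ± 0.0463 times that on chromosomes 3 and 5 (SD, n = 12 lists), and larger in 10 of 12 lists. The ratio was 0.993, 1.06 and 1.09 in mitotic G1E-ER4 and 1.04, 1.09 and 1.07 in asynchronous G1E-ER4. It was 1.04, 1.03 and 1.08 in mitotic G1E and 1.12, 0.966 and 1.00 in asynchronous G1E. The groups overlapped. The authors' pooled lists gave 1.03 and 1.07 in mitotic and asynchronous G1E-ER4 and 1.04 and 1.25 in mitotic and asynchronous G1E, the last above every single list. On the log2 scale the ratio differed by 0.0022 between mitotic and asynchronous lists (exact permutation test, two-sided, p = 0.955) and by 0.03 between G1E-ER4 and G1E (exact permutation test, two-sided, p = 0.515, adjusted 0.601). Among the 20000 highest peaks the stage difference was 0.13 (exact permutation p = 0.025).

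**Figure D4:**
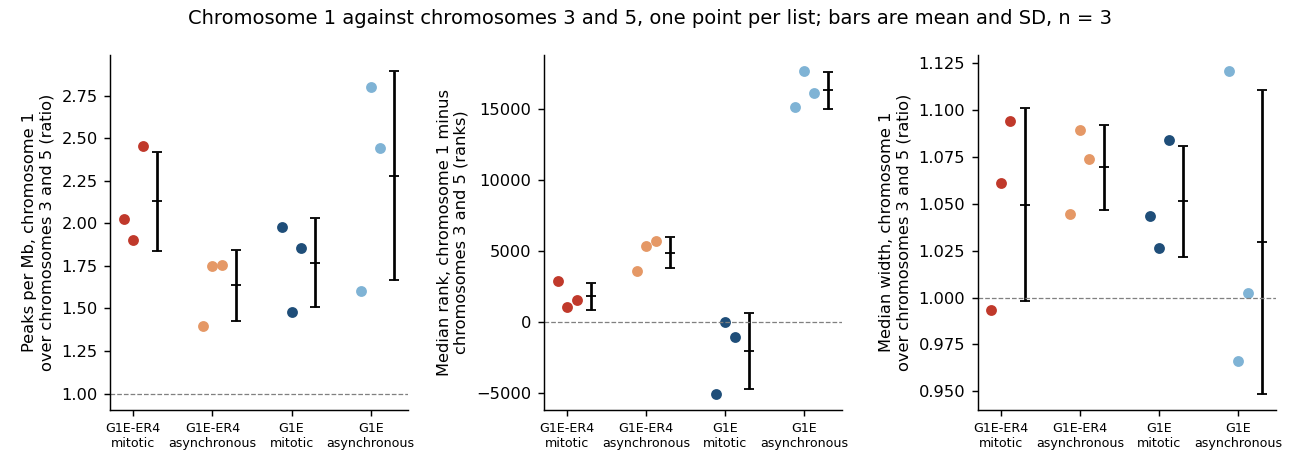
Density ratio (left), difference of median ranks (middle) and ratio of median widths (right) of chromosome 1 against chromosomes 3 and 5. Each point is 1 single-library list, and bars give mean and SD of 3 lists. The rank differences of asynchronous G1E, 15101 to 17665, lie apart from those of the other 3 groups, while the width ratios overlap.

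The next comparison asked how many accessible regions of chromosome 1 were found again in mitosis. Regions were those shared by 2 asynchronous lists of a line, and recovery is the share of them found in a mitotic list or in the left-out asynchronous list. In G1E-ER4 the mitotic lists held 76.2%, 76.0% and 72.2% of the chromosome 1 regions, and the asynchronous lists 81.4%, 79.5% and 83.3%. In G1E the mitotic lists held 57.6%, 57.6% and 63.0%, and the asynchronous lists 74.8%, 80.9% and 83.0%. Mitotic and asynchronous lists did not overlap in either line.

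Recovery on chromosome 1 was lower in mitosis. It was 74.8% ± 2.28 in mitotic and 81.4% ± 1.88 in asynchronous G1E-ER4 lists, a difference of −6.58 percentage points, and 59.4% ± 3.10 in mitotic and 79.6% ± 4.26 in asynchronous G1E lists, a difference of −20.2 points (SD, n = 3 each). Over both lines the mitotic minus asynchronous difference was −13.4 points (p = 0.005 by the same exact permutation of stage labels, adjusted 0.0175 over 7 tests). With labels exchanged only within replicate numbers, exact permutation gave p = 0.0313, adjusted 0.109, which does not pass. Within G1E the exact permutation p was 0.05, the smallest possible, and within G1E-ER4 it was 0.1. The G1E-ER4 difference was −2.22, −3.78 or −0.67 points without asynchronous replicate 1, 2 or 3 of that line, and the G1E difference −13.1 or −11.4 without its asynchronous replicate 2 or 3. G1E-ER4 minus G1E, the mitotic change differed by 13.6 points (p = 0.095 by exact two-sided permutation of the line labels within stage, adjusted 0.166).

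The loss on chromosomes 3 and 5 was larger. There the mitotic lists held 66.2% ± 4.16 of the regions in G1E-ER4, against 84.0% ± 4.99 in asynchronous lists, and 58.1% ± 7.38 in G1E, against 85.9% ± 3.20 in asynchronous lists (SD, n = 3 each). The mitotic change on chromosome 1 minus that on chromosomes 3 and 5 was 9.38 points (exact permutation test, two-sided, p = 0.01, adjusted 0.0233 over 7 tests, and 0.109 with labels exchanged only within replicate numbers), with 11.2 points in G1E-ER4 (exact permutation p = 0.1) and 7.59 in G1E (exact permutation p = 0.2). The change in G1E-ER4 minus that in G1E was 3.58 points (exact permutation test, two-sided, p = 0.465). Mitotic lists held a larger share on chromosome 1 than on chromosomes 3 and 5 in 3 of 3 cases in G1E-ER4 and in 2 of 3 in G1E, and asynchronous lists in 1 of 3 and 0 of 3. Chromosome 1 minus chromosomes 3 and 5, the share was 8.58 ± 1.99 points in mitotic and −2.59 ± 4.87 in asynchronous G1E-ER4 lists. In G1E it was 1.28 ± 6.30 in mitotic and −6.31 ± 6.29 in asynchronous lists (SD, n = 3 each). By replicate it was 8.02, −4.47 and 0.293 in mitotic and −13.4, −1.35 and −4.19 in asynchronous G1E lists. By the means, the 7.59 points in G1E lay mostly in a lower recovery by asynchronous lists on chromosome 1, with replicate 1 farthest from 0 in both stages. Without both replicate 1 lists, on regions of 1 asynchronous list, the G1E change was −14.1 points on chromosome 1 and −16.9 on chromosomes 3 and 5.

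The difference of mitotic changes between chromosome 1 and the comparison chromosomes was not held by every setting. It was 6.97 points without both replicate 1 lists of G1E (exact permutation p = 0.117), 6.09 against all other autosomes (exact permutation p = 0.0575), 6.19 against chromosome 5 alone (exact permutation p = 0.115), 5.95 without the dense bins (exact permutation p = 0.2) and 2.53 among the 20000 highest peaks (exact permutation p = 0.313). The level met by position alone was also higher on chromosome 1. Moved by 500 kb, the chromosome 1 regions met a peak in 36.8% ± 2.64 of cases in mitotic and 35.9% ± 2.66 in asynchronous G1E-ER4 lists, and in 29.3% ± 3.11 and 29.7% ± 2.02 in mitotic and asynchronous G1E lists (SD, n = 3 each). The regions of chromosomes 3 and 5 did so in 23.0% ± 3.35, 26.2% ± 5.29, 17.2% ± 1.39 and 14.0% ± 2.21 of cases in the same order of groups. Between stages the moved values differed in opposite directions in the lines, on chromosome 1 and on the comparison chromosomes. Whether density bears on the difference of mitotic changes was not tested.

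Recovery in mitosis differed along chromosome 1. Between 30 and 140 Mb the mitotic lists of G1E-ER4 held 83.4%, 82.2% and 77.8% of the regions, and the asynchronous lists 78.5%, 82.8% and 86.8%, so that they overlapped. In G1E the same stretch gave 64.5%, 61.4% and 66.3% in mitotic lists and 74.4%, 80.0% and 81.8% in asynchronous lists, with no overlap. The mean difference in this stretch was −1.57 points in G1E-ER4 and −14.7 in G1E. Leaving out 1 list at a time gave −2.68 to 4.87 points in G1E-ER4. The difference was 0.904 without asynchronous replicate 1 and 4.87 without asynchronous replicate 3, both on regions of 1 asynchronous list. In G1E leaving out 1 list gave −15.8 to −7.74 points, nearest 0 without asynchronous replicate 3, again on regions of 1 list.

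Beyond 140 Mb the mitotic lists lay below the asynchronous lists in both lines. In G1E-ER4 the mitotic lists held 58.3%, 61.0% and 57.3% of the regions, and the asynchronous lists 92.2%, 72.3% and 75.3%. In G1E the mitotic lists held 40.4%, 50.3% and 55.0%, and the asynchronous lists 77.4%, 83.9% and 88.6%. The mean difference was −21.0 points in G1E-ER4 and −34.7 in G1E, and these were not tested against the values at 30 to 140 Mb. Without asynchronous replicate 1 of G1E-ER4 the G1E-ER4 difference beyond 140 Mb was −13.7 points. It then rests on regions of 1 asynchronous list, with 46.3% found in mitotic and 60.0% in asynchronous lists. The G1E difference beyond 140 Mb, likewise on regions of 1 list, was −22.7 and −21.6 points without asynchronous replicate 1 or 3 of that line. Restricted to this part of the chromosome, the comparison with chromosomes 3 and 5 changed sign, to −5.11 points (exact permutation p = 0.0525), or −3.58 without asynchronous replicate 1 of G1E-ER4 (exact permutation p = 0.135). Restricted to 30 to 140 Mb it was 14.6 points (exact permutation p = 0.0025, the smallest its arrangements allow), and 13.7 without that list (exact permutation p = 0.005). Both parts were drawn after seeing the data, and the values without that list rest on regions of 1 asynchronous list in G1E-ER4.

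In the dense bins the mitotic lists held 80.3% ± 3.54 of the regions in G1E-ER4, against 85.3% ± 4.65 in asynchronous lists, and 75.9% ± 0.875 in G1E, against 83.5% ± 0.840 in asynchronous lists (SD, n = 3 each). In the other bins of chromosome 1 mitotic lists held 71.0% ± 1.40 in G1E-ER4, against 78.8% ± 2.64 in asynchronous lists, and 52.1% ± 4.25 in G1E, against 77.9% ± 5.75 in asynchronous lists (SD, n = 3 each). The difference in G1E was thus −7.58 points in dense bins and −25.8 points in the others, and these 2 values were not tested against each other. With 1 list left out at a time they were −7.91 to −3.07 and −28.3 to −14.5 points in G1E, nearest 0 without asynchronous replicate 3. In G1E-ER4 the differences were −5.07 points in dense and −7.77 in other bins, with −6.32 to −2.89 and −8.22 to 0.197 on leaving out 1 list, nearest 0 or above it without asynchronous replicate 3 of that line. Without asynchronous replicate 1 of G1E-ER4 they were −3.51 and −1.63 points. For both kinds of bin, every value without an asynchronous list rests on regions of 1 asynchronous list.

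**Figure D5:**
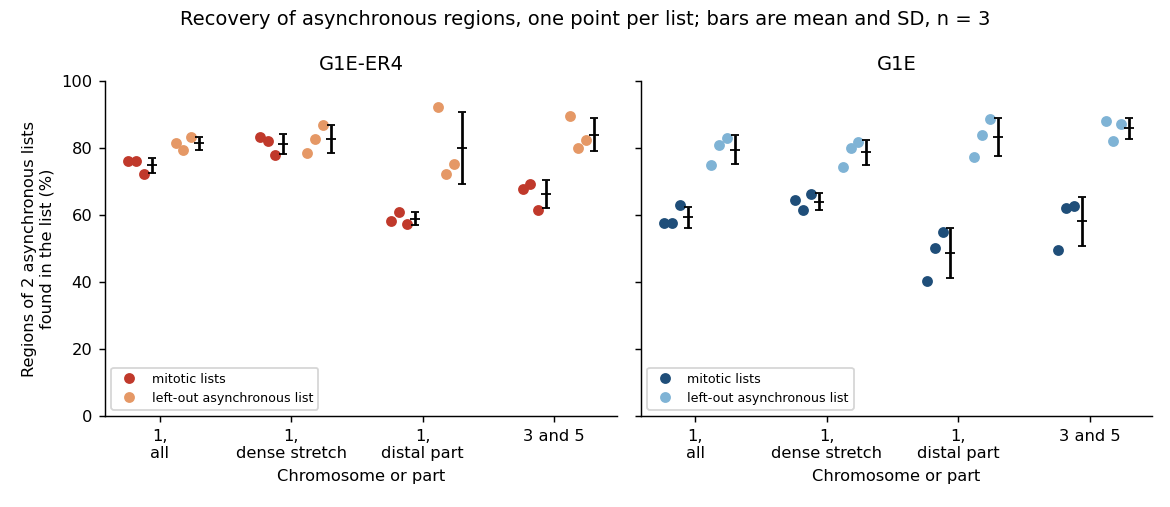
Share of the regions of 2 asynchronous lists that is found in each mitotic list or in the left-out asynchronous list, for chromosome 1, its dense stretch (30 to 140 Mb), its distal part (140 Mb to the end) and chromosomes 3 and 5. Points are single-library lists, and bars give mean and SD of 3. In G1E-ER4 the stages overlap in the dense stretch and are 21.0 points apart in the distal part. Without asynchronous replicate 1 they are 13.7 points apart there, on regions of 1 asynchronous list.

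The strength of a peak bore on its recovery. For the peaks of each asynchronous list, the share found was averaged over the mitotic lists of the line or over its other asynchronous lists. In this comparison SD and n = 3 refer to the asynchronous lists that gave the peaks, not to the lists searched. Of the chromosome 1 peaks among the 20000 highest of an asynchronous list, G1E-ER4 mitotic lists held 90.1% ± 1.36 and the other asynchronous lists 98.9% ± 0.220 (SD, n = 3 each). In G1E the mitotic lists held 84.3% ± 3.16 of them and the asynchronous lists 98.5% ± 0.425. Ranks 20001 to 40000 were found at 70.0% ± 1.30 in mitotic G1E-ER4 lists, against 80.9% ± 4.48 in asynchronous lists, and at 48.0% ± 1.78 in mitotic G1E lists, against 81.1% ± 2.70 in asynchronous lists (SD, n = 3 each).

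Below these ranks the stages lay closer in G1E-ER4 on chromosome 1. SD is again that between the asynchronous lists that gave the peaks. At ranks 40001 to 60000 of G1E-ER4 the mitotic lists held 56.7% ± 7.24 and the asynchronous lists 57.5% ± 7.74 (SD, n = 3 each). On chromosomes 3 and 5 the same ranks gave 43.7% ± 2.03 in mitotic and 56.7% ± 9.77 in asynchronous lists. In G1E the same ranks were found at 43.4% ± 8.12 in mitotic and 50.2% ± 10.1 in asynchronous lists on chromosome 1, and at 29.8% ± 2.40 and 50.0% ± 9.07 on chromosomes 3 and 5 (SD, n = 3 each). For the peaks of each of the 3 asynchronous G1E lists the chromosome 1 share was lower in mitotic lists, at 51.3%, 35.1% and 43.8%, against 61.2%, 41.4% and 47.9% in asynchronous lists. At ranks 80001 to 100000 of G1E, mitotic lists held 32.7% ± 8.64 of the chromosome 1 peaks and asynchronous lists 28.0% ± 4.95, against 22.2% ± 4.28 and 21.5% ± 5.76 on chromosomes 3 and 5 (SD, n = 3 each).

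Merging the peaks of the 12 lists wherever they overlap by at least 1 bp gave 265371 regions on the autosomes and X, of which 32973 lay on chromosome 1 (12.4%). Of these 48.1% came from 1 list, against 47.3% on chromosomes 3 and 5. All 12 lists held 1679 regions of chromosome 1 (5.09% of its regions, against 6.15% over all chromosomes). Of these 806 lay in the dense bins, whose share of all chromosome 1 regions is not given here. The 1679 regions had a median width of 4382 bp, against 3313 bp for all such regions, and a median mean rank of 20395 against 11044.

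Regions held by every mitotic list and by no asynchronous list of either line numbered 25 on chromosome 1, or 0.0758% of its regions, against 0.0271% over all chromosomes. Chromosome 1 thus had 34.7% of all 72 such regions, and chromosomes 3 and 5 had 2. Of the 25, 23 lay between 30 and 140 Mb, a stretch that held 21792 of the 32973 regions, and the other 2 before it. They were weak, with a median mean rank of 56603. The opposite class, regions of all asynchronous lists and no mitotic list, had 66 members on chromosome 1, 0.200% of its regions against 0.34% over all chromosomes. Of these 43 lay beyond 140 Mb, a part that held 7895 of the 32973 regions. No test was made of these counts.

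Within G1E-ER4 the shares lay on the same sides of those over all chromosomes. Mitotic-only regions numbered 353 on chromosome 1 (1.07%, against 0.423% over all chromosomes), and asynchronous-only regions 313 (0.949%, against 1.89%). Leaving out 1 list at a time gave 353 to 1045 mitotic-only and 313 to 601 asynchronous-only regions, the highest without mitotic replicate 2 and asynchronous replicate 2 of G1E-ER4. In G1E both shares were below those over all chromosomes. There 354 mitotic-only regions (1.07%, against 2.19%) stood beside 872 asynchronous-only ones (2.64%, against 2.97%). Leaving out 1 list at a time gave 354 to 676 mitotic-only and 872 to 1659 asynchronous-only regions, the highest without mitotic replicate 2 and asynchronous replicate 1 of G1E.

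By line, regions of all G1E-ER4 lists and no G1E list numbered 4 on chromosome 1 (0.0121%, against 0.0848% over all chromosomes), and regions of all G1E lists and no G1E-ER4 list also 4 (0.0121%, against 0.0358%). Without both replicate 1 lists of G1E the G1E-ER4-only count was 10 and the G1E-only count 33, and without mitotic replicate 1 of G1E alone the G1E-only count was 28. In asynchronous cells alone, 209 regions were held by all G1E-ER4 lists and no G1E list (0.634%, against 1.96%), and 672 by all G1E lists and no G1E-ER4 list (2.04%, against 2.15%). Leaving out 1 list at a time gave 209 to 482 and 672 to 1451, the highest without asynchronous replicate 2 of G1E-ER4 and asynchronous replicate 1 of G1E. In mitotic cells the counts were 180 (0.546%, against 0.536%) and 120 (0.364%, against 0.581%), with 180 to 768 and 120 to 325 on leaving out 1 list, the highest without mitotic replicate 2 of each line.

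The strongest shared region of chromosome 1, at positions 43881625 to 43886912 on build mm9 (5288 bp), ranked between 17 and 234 in the 12 lists. The second, at 60696986 to 60697895, ranked between 13 and 816, and the third, at 55108471 to 55115173, between 33 and 665. None of the 3 lay in a dense bin.

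The mitotic-only region of best mean rank lay at 14168479 to 14169680. It ranked 30503, 27263 and 27536 in mitotic G1E-ER4 and 31775, 34733 and 31814 in mitotic G1E, and was in no asynchronous list, pooled ones included. The second, at 58707807 to 58708762, ranked between 11410 and 67843 in mitotic lists, and the authors' pooled asynchronous G1E-ER4 list also held it. The third lay at 78738738 to 78740416.

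The asynchronous-only region of best mean rank lay at 157319229 to 157320299. It ranked 22980, 14570 and 23868 in asynchronous G1E-ER4 and 24911, 8046 and 14804 in asynchronous G1E. The next 2 lay at 169344721 to 169345439 and at 193188339 to 193188987, also beyond 140 Mb.

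The G1E-ER4-only region of best mean rank, at 88217454 to 88218051, ranked between 12305 and 38218 in the 6 lists of that line. It was in no single G1E list, but the authors' pooled asynchronous G1E list held it. The G1E-only region of best mean rank, at 131673381 to 131674215, ranked between 10636 and 68920 in the 6 lists of that line, lowest in mitotic replicate 1. The genes at these positions were not analysed here, since no annotation of build mm9 was used, and for the same reason the cell type was not checked against its marker genes.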

How the data were processed

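Accessible chromatin was measured by DNase-seq in 12 libraries of 2 lines. Reads were aligned with Bowtie to mm9, per the submitters' processing notes. For the Bowtie version, the caller of peaks and any filter, the entry is "not given in the sources used here". Deposited were 12 single lists and 4 that the authors pooled, each with 100000 peaks and a signal value per peak from the authors' caller. How this deposited signal was normalized is also not given, so it served only to rank peaks within a list. The files give no reads, so no depth or counting interval can be stated. No 2 lists were identical.

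The members and all lists, parts and tests were chosen with earlier results of these data known. Merged regions cover the autosomes and X. Positions are counted from 1 on mm9, and pooled lists serve as a side check. Density is peaks divided by the span from the first to the last peak of a chromosome over all lists. Rank, width and recovery were compared with exact permutation tests, two-sided, labels exchanged within line or stage (20 arrangements per stratum, 400 combined, smallest p 0.1 and 0.005, or 0.05 and 0.0025 for recovery), with a threshold of 0.05 and Benjamini-Hochberg adjustment over 7 tests, and over 3 for differences between lines. Named regions are the 3 of best mean rank per class, and the 3 longest runs of dense bins. Same-numbered lists were not treated as pairs: correlations of their deviations from the group means along chromosome 1 ran from −0.407 to 0.415 between stages and were 0.126, 0.355 and 0.0659 between lines in mitosis. Between lines in asynchronous lists they were 0.325, 0.362 and 0.119, all over 0.1. Both replicate 1 lists of G1E shared a high share on chromosome 4, a likeness that tests without the replicate block ignore. The procedure was tested on simulated data with known answers. Where an asynchronous list is left out, recovery in that line rests on regions of 1 asynchronous list, not of 2. Alternatives were leaving out each list, the 50000 highest peaks, an overlap of 0.5 of the shorter interval, windows of 300 bp around summits, bins of 0.5 and 2 Mb, no dense bins, all other autosomes as reference and a replicate block. Chosen after seeing the data were the 20000 highest peaks, leaving out both replicate 1 lists of G1E or replicates 2 and 3 of asynchronous G1E, the 2 parts of the chromosome, with and without asynchronous G1E-ER4 replicate 1, and chromosome 3 or 5 alone as reference. Gene counts are protein-coding symbols of RefSeq for GRCm38.p6. No sequence is shown, as no genome of build mm9 was used. Python 3.11.15, numpy 2.4.6, pandas 2.3.3, scipy 1.17.1 and matplotlib 3.10.9 were used.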

Additional observations from a re-analysis of the deposited data

Results flagged for a closer look

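The stage difference in rank differed between the lines. In G1E-ER4 the median rank of chromosome 1 minus that of chromosomes 3 and 5 was 1784 ± 944 in mitotic and 4857 ± 1120 in asynchronous lists, and in G1E −2060 ± 2657 in mitotic and 16295 ± 1291 in asynchronous lists (SD, n = 3 each). The shift in G1E-ER4 minus that in G1E was 15282 ranks (exact permutation test, two-sided, p = 0.005, the smallest its 400 arrangements allow, 0.015 adjusted over 3 tests). With labels exchanged only within replicate numbers, exact permutation gave p = 0.0313, adjusted 0.0938. Leaving out 1 list at a time gave 13776 to 16286. Among the 50000 highest peaks it was 2459 (exact permutation p = 0.37), and among the 20000 highest −1270 (exact permutation p = 0.25).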

How the results depend on the processing

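Over 709 recomputed values, 596 kept their direction and their side of the threshold or their size, and 36 changed sign. Part of this count was fixed in advance, so it does not measure robustness. Tests within a single line or stage cannot fall below 0.05, and leaving out a list of 1 line repeats the recovery of the other. Single strata and other counts made up 444 of the 709 values. By unadjusted p, lower recovery in mitosis on chromosome 1, over both lines, kept both in every alternative run for it, from −14.3 to −8.97 points with 1 list left out. Its difference from chromosomes 3 and 5 was 7.70 to 10.8 with 1 list left out, 6.97 without both replicate 1 lists of G1E, 2.53 among the 20000 highest peaks (−0.0832 in G1E), 5.95 without dense bins, 6.09 against all other autosomes, 6.19 against chromosome 5 alone, and −5.11 beyond 140 Mb (−3.27 in G1E-ER4, −6.95 in G1E). Without asynchronous G1E-ER4 replicate 1 the comparison beyond 140 Mb was −3.58 (−0.204 in G1E-ER4, −6.95 in G1E), and the G1E-ER4 recovery difference at 30 to 140 Mb 0.904. The difference between the lines in this loss was 4.79 to 19.5 with 1 list left out and −0.138 among the 20000 highest. The stage difference in rank was −11216 to −9961 with 1 list left out and 3151 among the 20000 highest (2516 in G1E-ER4, 3786 in G1E). That by line was −4550 to −3295 with 1 list left out, 113 among the 50000 highest and 337 among the 20000 highest (−298 in mitotic, 972 in asynchronous lists), and the rank shift between lines −1270 there. The log2 width ratio by stage was −0.0201 to 0.0336 with 1 list left out, −0.0527 among the 50000 highest, 0.134 among the 20000 highest (0.0490 in G1E-ER4) and −0.00297 against chromosome 5 alone. Without asynchronous G1E replicates 2 and 3 it was −0.0605 by stage (−0.0928 in G1E), −0.0359 by line (−0.0682 in asynchronous lists), and 0.0647 for the stage difference between lines. In single strata with 1 list left out it was −0.0589 to 0.0110 by stage in G1E-ER4, −0.0121 to 0.0953 by stage in G1E and −0.0343 to 0.0356 by line in mitotic lists. By line over both stages it was 0.00447 to 0.0582 with 1 list left out, and 0.0021 in mitotic lists against all other autosomes. The density ratio was 1.87 to 2.00 with 1 list left out and 1.29 among the 20000 highest, and the dense bins covered 20 to 27 Mb with 1 list left out, 13 Mb among the 50000 highest and 10 Mb among the 20000 highest. With 1 list left out, 1695 to 1830 regions were in every list, 26 to 44 mitotic only, 69 to 112 asynchronous only, 4 to 9 G1E-ER4 only and 4 to 28 G1E only. Among the 50000 highest peaks 891 regions were in every list and 1 was G1E-ER4 only, and without both replicate 1 lists of G1E 10 were G1E-ER4 only and 33 G1E only. The cause of these changes was not tested, except that fewer lists make the presence rule easier to meet and fewer peaks make it harder.

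Over all replicates the numbers were not shown to pair the stages, nor the lines over both stages. In G1E, however, replicates 1 and 3 correlated between stages at 0.327 and 0.415, and replicate 2 at −0.0292. Both replicate 1 lists of G1E also had high shares on chromosome 4, at 15.9% in mitotic and 13.7% in asynchronous cells. Tests without the block do not take such likeness into account. With a replicate block, exchanging labels only within a number (64 arrangements), exact permutation gave p = 0.0313 for the recovery difference of −13.4, p = 0.0469 for the 9.38 points and p = 0.0313 for the rank difference of −10714, each 0.109 after adjustment over 7 tests, so no adjusted call remained below 0.05. The smallest p is 0.0313, or 0.0156 for recovery. By line, exact permutation with the block gave p = 0.219 for recovery, p = 0.313 for rank and p = 0.563 for width. In asynchronous lists alone, where the numbers did correlate, exact permutation with the block gave p = 0.25 for the rank difference of −11438. That is the smallest p the block allows within a stage, so it could not fall below the threshold.

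Each list ends at a fixed rank, so density, rank and recovery are not independent measures of a list, and the signal at that rank differs between lists. Depth is unknown, and 3 lists per group set the precision.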
